A study of Mus musculus with 6 samples.

Results

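The motor genes described here are 10 mouse genes for subunits of kinesin, dynein and dynactin, the machines that carry cargo along microtubules: Kif1b, Kif1a, Kif2a, Kif21a, Klc1, Klc2, Dync1i2, Dync1i1, Dctn1 and Dctn2. All splicing events listed under these symbols were taken, and they came to 66 of the 45595 events in the authors' deposited table, in 7 of the 9594 genes it lists. No event stood under Kif1a, Kif21a or Dync1i1, and the splicing of those genes was not analysed here. The study sequenced total RNA of N2a (Neuro-2a) cells, a mouse neuroblastoma line, in 3 libraries labelled hnRNPDL-KO and 3 labelled wild type. The labels name neither a clone nor the way the knockout was made, and whether the 3 libraries of each genotype are separate cultures is not given, so the p-values measure the spread between libraries, which may be technical.

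The deposited table compares 3 libraries with 3 others under the names SAMPLE_1 and SAMPLE_2, called set 1 and set 2 here, and no label or header ties either set to a genotype. All differences are therefore given as set 1 minus set 2 or set 1 over set 2, with no genotype attached to a direction. Libraries are named by their place in the table's lists, and that place is not a replicate number. The junction reads summed over events were 13573870 to 16707466 per library in set 1 and 13501749 to 18185394 in set 2. In each set library 1 had the most reads. Hnrnpdl, the gene named in the knockout label, had 399.5, 428.6 and 432.8 CPM of junction reads in set 1, against 469.7, 502.4 and 502.0 in set 2, so neither set lacked it. On the first principal component of the junction totals, which held 40.1% of the variance, set 2 lay between -18.01 and -7.68. Library 1 of set 1 lay at -5.83, apart from the other set 1 libraries at 18.35 and 22.01. On the second component, which held 26.7%, library 1 lay lowest in each set, at -18.88 in set 1 and -8.91 in set 2. The other libraries lay at -0.96 and -0.6 in set 1 and at 12.6 and 16.76 in set 2. The part of read depth in the results below was not tested. Of 17 neuron or neuroblastoma markers 7 had a junction total, with summed values of 411.0 to 715.9 CPM in set 1 and 583.4 to 760.2 in set 2. Of these markers 1 was lower in set 1 by limma's adjusted p and 0 were higher, where 1.06% of all 8285 genes passed. The part of the markers in the results below was not tested. No fibroblast marker of 5 and no astrocyte or microglia marker of 6 had an event in the table, and of 3 oligodendrocyte markers 2 had an event and 0 a total that could be tested. In bulk RNA, fewer cells of a type and less RNA per cell cannot be told apart.

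Kinesins mostly walk toward the plus end of the microtubule and cytoplasmic dynein walks toward the minus end, so in an axon they carry cargo outward and back toward the cell body. Kinesin light chains and the dynein intermediate chain link the motor to cargo or to adaptors, and dynactin is the large complex that dynein needs for long runs. Neurons are known to splice several of these genes into forms that differ by short stretches of protein, which can change cargo choice, binding to microtubules or binding to partners.

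The alternative stretches that most of the results turn on are printed next, read 5′ to 3′ on the gene's strand from GENCODE vM21 transcripts on GRCm38, the build that mm10 names. Capitals mark the bases that are included or left out, and the 15 lower-case bases on each side belong to the neighbouring exon sequence of the same transcript. They were chosen because in the deposited table each of these places, or the small-exon cluster it belongs to, is spliced in more than 1 way in these cells.
Dync1i2 exon of 60 bases, chr2:71233649-71233708, plus strand: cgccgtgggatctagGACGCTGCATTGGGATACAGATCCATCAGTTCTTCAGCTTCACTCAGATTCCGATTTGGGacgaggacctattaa
Dync1i2 acceptor step of 3 bases, chr2:71262648-71262650, plus strand: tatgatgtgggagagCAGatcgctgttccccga
Dctn1 exon of 21 bases, chr6:83183936-83183956, plus strand: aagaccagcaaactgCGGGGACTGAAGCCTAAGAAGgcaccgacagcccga
Dctn1 exon of 18 bases, chr6:83186428-83186445, plus strand: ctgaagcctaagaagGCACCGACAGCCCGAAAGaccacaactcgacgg
Dctn1 second exon of 21 bases, chr6:83187764-83187784, plus strand: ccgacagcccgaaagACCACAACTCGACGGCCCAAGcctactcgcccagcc
Dctn1 exon of 15 bases, chr6:83197319-83197333, plus strand: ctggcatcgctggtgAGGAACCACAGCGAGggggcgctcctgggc
Kif1b exon of 18 bases, chr4:149265345-149265362, minus strand: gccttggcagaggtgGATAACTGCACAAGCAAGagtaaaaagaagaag
Kif1b exon of 42 bases, chr4:149261160-149261201, minus strand: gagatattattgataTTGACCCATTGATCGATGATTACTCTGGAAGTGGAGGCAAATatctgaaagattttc
Kif1b acceptor extension of 78 bases, chr4:149258004-149258081, minus strand: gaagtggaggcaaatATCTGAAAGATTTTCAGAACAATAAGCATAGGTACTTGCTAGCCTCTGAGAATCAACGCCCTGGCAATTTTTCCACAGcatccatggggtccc
Kif2a donor extension of 57 bases, chr13:106987953-106988009, minus strand: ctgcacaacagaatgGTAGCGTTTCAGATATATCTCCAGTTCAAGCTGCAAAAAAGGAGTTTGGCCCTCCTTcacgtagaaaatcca
Kif2a exon of 114 bases, chr13:106969704-106969817, minus strand: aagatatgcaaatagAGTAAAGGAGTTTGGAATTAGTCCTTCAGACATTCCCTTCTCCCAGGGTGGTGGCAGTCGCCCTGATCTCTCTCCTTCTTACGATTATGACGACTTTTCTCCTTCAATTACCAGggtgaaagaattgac
Klc1 acceptor extension of 24 bases, chr12:111789325-111789348, plus strand: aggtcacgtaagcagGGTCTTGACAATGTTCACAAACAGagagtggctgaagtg
Klc1 donor extension of 27 bases, chr12:111789460-111789486, plus strand: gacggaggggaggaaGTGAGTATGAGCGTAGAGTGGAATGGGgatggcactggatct
The Dync1i2 step adds the triplet CAG at the acceptor, the shortest alternative stretch among these genes.

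The inclusion level of an event is the share of its junction reads, corrected for length by the authors, that keep the longer form or the exon, from 0 to 1. For a mutually exclusive pair it weighs the reads of 1 exon against those of the other. Of the 66 events, 52 were skipped exons, 5 alternative acceptor sites, 2 alternative donor sites, 4 mutually exclusive exon pairs and 3 retained introns. The 60 events with a mean of 20 or more junction reads per library were tested, namely 10 of Kif1b, 9 of Kif2a, 5 of Klc1, 10 of Klc2, 6 of Dync1i2, 8 of Dctn1 and 12 of Dctn2. Events of 1 gene often share junctions and are not independent. In 38 of the 60 events the mean level over the 6 libraries was above 0.95 and in 7 it was below 0.05. This left 15 events, or 25%, at a mean of 0.05 to 0.95. Over all tested events of the table that share was 30.3%. The 15 include mutually exclusive pairs of Dctn2 and Klc2 whose exons were both mostly kept, so such a level does not show skipping there.

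The single exons and splice-site stretches used in both ways had lengths divisible by 3, which the Dctn2 retained intron of 181 bases and the 239-base exon of a Klc2 pair did not. All 6 member exons at a mean of 0.05 to 0.95 had a length divisible by 3, as did all 3 acceptor stretches and both donor stretches. Among all events of the table at such levels, the length was divisible by 3 in 2285 of 4685 skipped exons (48.8%), 796 of 1214 acceptor stretches (65.6%) and 344 of 732 donor stretches (47%). The 11 member stretches were 3 to 249 bases long with a median of 42, and 5 of them were of 27 bases or fewer. A sequence was read for 10 of the 11, each inside the coding sequence of an annotated transcript. That choice excluded a stop codon in frame beforehand, so its absence from the 10 carries no information. The stretch left out was the Klc1 51-base exon, which lies in no annotated coding sequence. The counts are a description of these genes and carry no test.

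**Figure D1:**
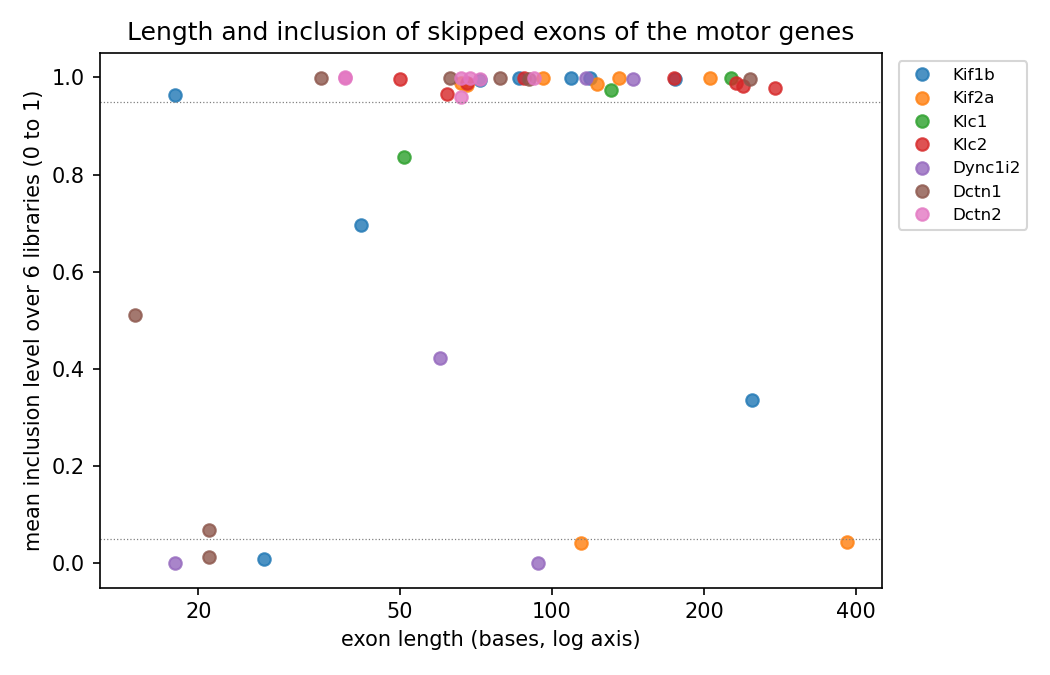
Exon length in bases (horizontal, log axis) against the mean inclusion level over the 6 libraries (vertical) for the tested skipped exons of 7 motor genes, with 1 point per event, colours for genes and dotted lines at 0.05 and 0.95. Most exons lie at the top edge, while the 15-base and 21-base Dctn1 exons, the 42-base and 249-base Kif1b exons, the 51-base Klc1 exon and the 60-base Dync1i2 exon lie between the lines.

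Between the sets, 0 of the 60 tested member events were called by the moderated quasi-binomial test, which asked for a change in level of 0.10 or more beside an adjusted p under 0.05. The same rule called 11 of all 39419 tested events, or 0.0279%, and leaving out 1 library at a time gave 2 calls (without library 2 of set 1, library 1 of set 2 or library 2 of set 2) to 19 calls (without library 1 of set 1) over all events, with 7 without library 3 of set 2. An unadjusted quasi-binomial p under 0.05 was found for 4 of the 60 (6.67%), against 3.8% of all tested events. Those 4 were the 60-base exon of Dync1i2, the 78-base stretch of Kif1b, the 114-base exon of Kif2a and the 131-base exon of Klc1. With limma on logit levels, 0 member events were called and 0 lay under that p, against 3.32% of all tested events. An exact permutation test of 3 libraries against 3 cannot go below 0.10, so none is given for a single event. The authors' deposited table itself called 0 of the 66 member events at the same thresholds, against 0.645% of all its events. The levels of the 2 sets did not overlap in 1 of the 60 member events (1.67%), against 5.55% of all tested events.

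The inclusion level was lower in set 1 for 34 of the 60 member events, higher for 25 and equal for 1. The median difference was -0.00133, against 0.000667 over all tested events, and the median size of the difference was 0.00417, against 0.00833 over all. Among the 15 events at a mean of 0.05 to 0.95, 10 were lower in set 1, where 49% of all events at such levels were lower. The median size of the difference was 0.0183 in the 15, against 0.028 over all such events. The smallest adjusted p of a member event was 0.746 in the quasi-binomial test. That test pools the reads of the libraries of a set, so libraries with more reads weigh more. The differences and SEs given below weigh the levels of the libraries equally.

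Dync1i2 encodes an intermediate chain of cytoplasmic dynein, the subunit that holds the light chains and binds dynactin, and its forms are known to differ in the part near the N-terminus. The 60-base exon, which adds 20 codons, had inclusion levels of 0.441, 0.347 and 0.304 in set 1, against 0.502, 0.518 and 0.426 in set 2. The highest set 1 library lay just above the lowest set 2 library, so the sets overlapped, with all other set 1 values below all set 2 values. The means were 0.364 in set 1 and 0.482 in set 2, a difference of -0.118 ± 0.0494 (SE, n = 3 and 3), with an adjusted p of 0.746 in the quasi-binomial test and of 0.064 in the authors' deposited table. The exon was the only member event that passed under any alternative setting run here, with an adjusted p of 0.000332 when the spread was estimated along the total read count, a setting that called 64 of all tested events (0.162%). When 1 library was left out, the difference ran from -0.157 (without library 1 of set 1) to -0.088 (without library 3 of set 1).

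At the end of the same gene, the CAG step at the acceptor was kept in nearly all transcripts, with levels of 0.951, 0.962 and 0.941 in set 1, against 0.95, 0.908 and 0.962 in set 2. The set 1 values lay within the range of set 2, and the difference was 0.0113 ± 0.0175 (SE, n = 3 and 3; quasi-binomial adjusted p = 0.746). It was -0.00467 without library 2 of set 2. An 18-base exon and an overlapping 94-base exon were nearly absent, with at most 1 inclusion read in any library.

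Dctn1 encodes p150Glued, the dynactin arm that binds microtubules through a CAP-Gly domain and a basic stretch next to it, and that also binds the dynein intermediate chain. Its 15-base exon, which adds 5 codons, had levels of 0.495, 0.42 and 0.47 in set 1, against 0.601, 0.595 and 0.489 in set 2. The sets overlapped only through the highest value of set 1 and the lowest of set 2. The means were 0.462 in set 1 and 0.562 in set 2, a difference of -0.1 ± 0.0425 (SE, n = 3 and 3; quasi-binomial adjusted p = 0.746), with an adjusted p of 0.298 in the authors' deposited table.

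The 3 small Dctn1 exons printed together above lie one after another along the gene, and both 21-base exons were mostly skipped. The first 21-base exon had levels of 0.098, 0.005 and 0.035 in set 1, against 0.075, 0.096 and 0.099 in set 2. Library 1 of set 1 lay among the set 2 libraries and the other set 1 libraries lay below them. The difference was -0.044 ± 0.0284 (SE, n = 3 and 3; quasi-binomial adjusted p = 0.746). It was -0.07 without library 1 of set 1 and -0.0235 without library 2 of set 1. The inclusion reads behind it were 21, 1 and 6 in set 1 and 15, 17 and 16 in set 2. The same exon also stands in events with too few reads to be tested, which were higher in set 1. As a skipped exon between other neighbours it differed by 0.177 on a mean of 5.17 reads per library. In a mutually exclusive pair the difference was 0.0143 on a mean of 15.2 reads. The second 21-base exon was rarer, with levels of 0.03, 0 and 0.006 in set 1, against 0.026, 0 and 0.02 in set 2. The 18-base exon between them had a mean of 4.17 reads per library and was not tested. The other tested Dctn1 exons were included at a mean of 0.996 or more.

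Dctn2 encodes dynamitin, the dynactin subunit that joins the arm to the rest of the complex. Its 12 tested events held 9 above a mean of 0.95, and 2 between the limits. The retained 181-base intron at chr10:127277939-127278119 had levels of 0.061, 0.055 and 0.06 in set 1, against 0.062, 0.082 and 0.068 in set 2. It was the member event whose sets did not overlap, with every set 1 library below every set 2 library. The gap between the nearest values was small, and the difference was -0.012 ± 0.00621 (SE, n = 3 and 3; quasi-binomial adjusted p = 0.746). It was -0.00633 without library 2 of set 2. The 66-base and 39-base exons of Dctn2, at chr10:127277255-127277320 and chr10:127277487-127277525, were listed as a mutually exclusive pair. The pair's levels, for the 66-base exon against the 39-base exon, were 0.381, 0.554 and 0.538 in set 1, against 0.428, 0.496 and 0.558 in set 2. Those values crossed between the sets, with a difference of -0.003 ± 0.0668 (SE, n = 3 and 3; quasi-binomial adjusted p = 0.886). It was 0.052 without library 1 of set 1 and 0.029 without library 3 of set 2. Listed as a skipped exon in 2 tested events, the 66-base exon had, in the lower of them, levels of 0.951, 0.959 and 0.972 in set 1 and 0.951, 0.967 and 0.953 in set 2, and the 39-base exon was at a mean of 0.998 or more. Both exons were therefore mostly kept, and the pair's level is not the share of transcripts that hold the 66-base exon.

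**Figure D2:**
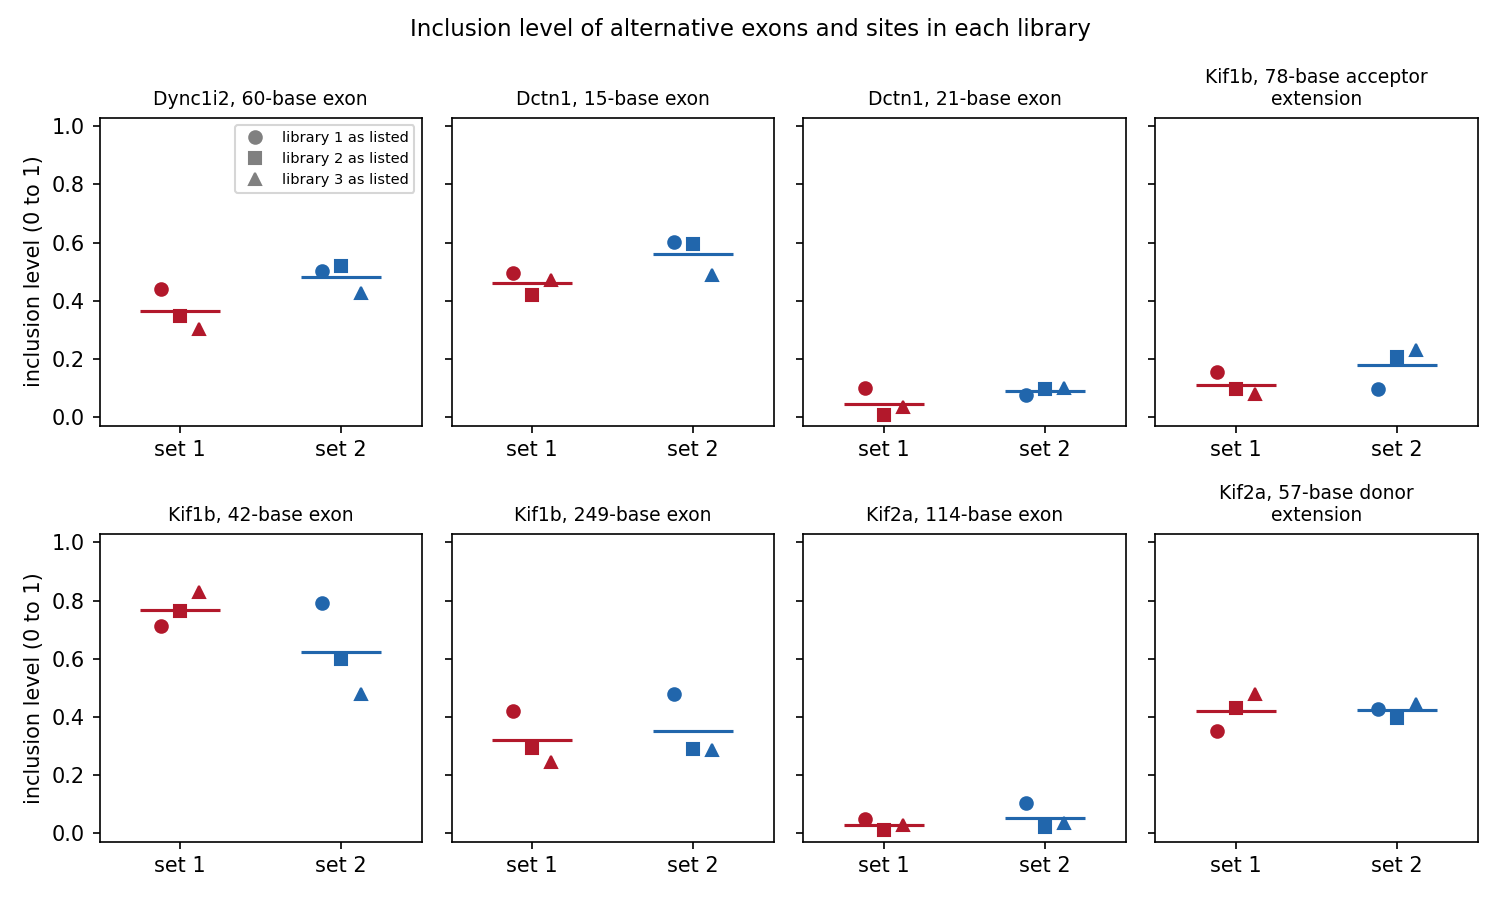
Inclusion level (vertical, 0 to 1) of 8 alternative exons and sites in each library, with set 1 on the left in red and set 2 on the right in blue, where circles, squares and triangles are libraries 1, 2 and 3 as the table lists them, and lines are means of 3 libraries. The Dync1i2 60-base exon and the Dctn1 15-base exon have lower means in set 1, with overlapping libraries, and the Kif1b 42-base exon has a higher mean in set 1.

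Kif1b encodes a kinesin-3 motor that carries mitochondria or synaptic vesicle precursors, depending on its form. Along the gene, 3 optional stretches lie close to each other. The 18-base exon, described here although the naming rule did not pick it and it was chosen after its values were seen, was nearly always kept, with levels of 0.979, 0.938 and 0.934 in set 1, against 0.974, 0.989 and 0.961 in set 2. The sets overlapped, and the adjusted p was 0.746 in the quasi-binomial test.

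The 42-base Kif1b exon had levels of 0.711, 0.765 and 0.831 in set 1, against 0.791, 0.598 and 0.478 in set 2. Set 2 spread widely, and its library 1 lay within the range of set 1 while its other libraries lay below it. The means were 0.769 in set 1 and 0.622 in set 2, and the difference of 0.147 ± 0.0976 (SE, n = 3 and 3; quasi-binomial adjusted p = 0.746) was the largest of any tested member event with all libraries in, on a mean of 37.7 reads per library. It was 0.0745 without library 3 of set 2, smaller in size than the -0.146 of the Dync1i2 60-base exon in that setting, and 0.231 without library 1 of set 2. The 78-base acceptor extension, which in the annotation lies in a transcript that also holds the 42-base exon, had levels of 0.154, 0.096 and 0.079 in set 1, against 0.095, 0.206 and 0.231 in set 2. Library 1 of set 2 lay within set 1, and the other set 2 libraries lay above it. The means were 0.11 in set 1 and 0.177 in set 2, a difference of -0.0677 ± 0.0476 (SE, n = 3 and 3), with an adjusted p of 0.746 in the quasi-binomial test and of 0.17 in the authors' deposited table. The difference was -0.109 without library 1 of set 2 and -0.0408 without library 3 of set 2.

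The 249-base Kif1b exon, at chr4:149220542-149220790 further along the gene, had levels of 0.42, 0.292 and 0.246 in set 1, against 0.48, 0.291 and 0.286 in set 2. In each set the library listed first was the highest. The difference of -0.033 ± 0.0824 (SE, n = 3 and 3; quasi-binomial adjusted p = 0.746) was smaller than the spread within each set, and it was 0.00367 without library 3 of set 1 and 0.0308 without library 1 of set 2. A 27-base exon was nearly absent at a mean of 0.009. The 6 tested Kif1b events above 0.95 had means of 0.963 or more.

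Kif2a encodes a kinesin-13, which does not walk but takes microtubule ends apart. The 57-base donor extension, which adds 19 codons, was spliced in both ways in every library, with levels of 0.352, 0.432 and 0.478 in set 1, against 0.428, 0.396 and 0.443 in set 2. Set 2 lay inside the range of set 1, and the difference was -0.00167 ± 0.0393 (SE, n = 3 and 3; quasi-binomial adjusted p = 0.9). Its sign turned without library 1 of set 1 (0.0327), library 1 of set 2 (0.00117) or library 3 of set 2 (0.00867). The 114-base exon was rare, with levels of 0.048, 0.012 and 0.027 in set 1, against 0.103, 0.021 and 0.036 in set 2. In each set the first-listed library was the highest. The difference was -0.0243 ± 0.0273 (SE, n = 3 and 3; quasi-binomial adjusted p = 0.746), with an adjusted p of 0.114 in the authors' deposited table. The exon's inclusion reads were 32, 4 and 8 in set 1 and 67, 8 and 12 in set 2. Without library 1 of set 2 the difference was 0.0005, with an unadjusted quasi-binomial p of 0.639. That p was 0.155 without library 2 of set 1 and 0.0529 without library 3 of set 1. A 383-base exon was as rare, at a mean of 0.0437, and the 6 Kif2a events above 0.95 had means of 0.985 or more.

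Klc1 and Klc2 encode kinesin-1 light chains, which bind cargo adaptors through their repeats and, in Klc1, have C-terminal ends that are known to vary by splicing. The 24-base acceptor extension of Klc1 had levels of 0.697, 0.705 and 0.631 in set 1, against 0.669, 0.647 and 0.682 in set 2. Set 2 lay inside the range of set 1, with a difference of 0.0117 ± 0.0256 (SE, n = 3 and 3; quasi-binomial adjusted p = 0.875), which was -0.002 without library 2 of set 1. The 27-base donor extension nearby had levels of 0.806, 0.691 and 0.765 in set 1, against 0.744, 0.885 and 0.797 in set 2. The sets overlapped, and the difference was -0.0547 ± 0.0531 (SE, n = 3 and 3; quasi-binomial adjusted p = 0.772) on a mean of 42 reads per library. It was -0.0165 without library 2 of set 2, -0.0232 without library 2 of set 1 and -0.087 without library 1 of set 2.

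Further toward the Klc1 end, the 51-base exon at chr12:111793649-111793699 had levels of 0.827, 0.814 and 0.897 in set 1, against 0.867, 0.815 and 0.801 in set 2. The sets overlapped, with a difference of 0.0183 ± 0.0327 (SE, n = 3 and 3; quasi-binomial adjusted p = 0.867), which was -0.00717 without library 3 of set 1. The 131-base exon at chr12:111795548-111795678 was kept at 0.839, 1 and 1 in set 1, against 1, 1 and 1 in set 2. Its 8 skipping reads all came from library 1 of set 1, so its place among the 4 events under the unadjusted threshold rested on that library, and without it the difference was 0.

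In Klc2, 8 of the 10 tested events were above a mean of 0.95. The 231-base and 239-base exons, at chr19:5113941-5114171 and chr19:5117194-5117432, were listed as mutually exclusive. The levels, for the 239-base exon against the 231-base exon, were 0.462, 0.513 and 0.352 in set 1, against 0.441, 0.402 and 0.461 in set 2. Set 2 lay inside set 1, and the difference was 0.00767 ± 0.0506 (SE, n = 3 and 3; quasi-binomial adjusted p = 0.964). It was -0.00217 without library 1 of set 1, -0.0277 without library 2 of set 1 and -0.00867 without library 2 of set 2. An overlapping pair of 231 and 276 bases differed by -0.015 ± 0.0565 (SE, n = 3 and 3). As skipped exons the 231-base, 239-base and 276-base exons were kept at means of 0.989, 0.983 and 0.977. The levels of the pairs are therefore not the share of transcripts that hold either exon.

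**Figure D3:**
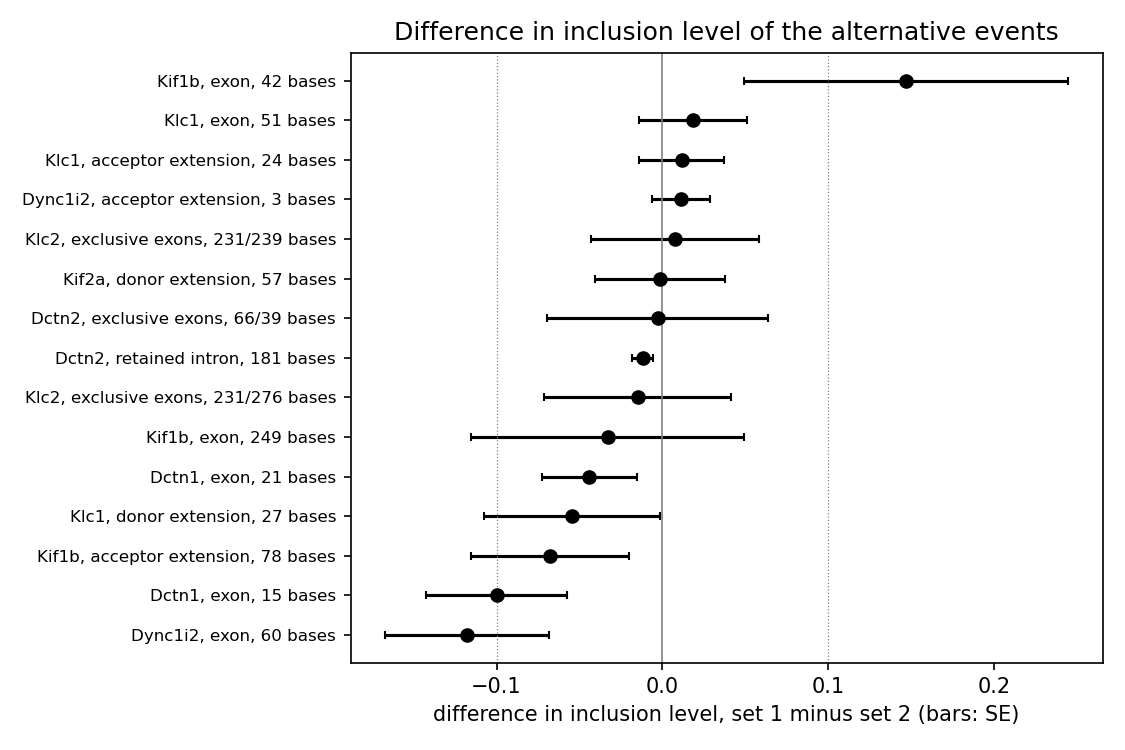
Difference in inclusion level, set 1 minus set 2 (horizontal), for the member events with a mean level of 0.05 to 0.95, with bars of 1 SE over 3 and 3 libraries and dotted lines at changes of 0.1 either way. The Kif1b 42-base exon lies at 0.147 and the Dync1i2 60-base exon at -0.118, and most other events lie near 0.

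Junction totals add up the inclusion and skipping reads of the event with the most reads in each gene, so they rest on the same kind of reads as the inclusion level but on their sum and not on their ratio, here scaled to CPM by the sum of such reads in the library. They were compared within each gene only. By limma, 0 of the 7 member genes passed an adjusted p under 0.05 and 0 had an unadjusted p under 0.05, against 1.06% of all 8285 genes that passed the adjusted threshold and 9.45% under the unadjusted one. Leaving out 1 library gave 26 calls over all genes without library 2 of set 1 and 283 without library 1 of set 1, against 88 with all libraries, and it gave 42 calls without library 3 of set 1, 32 without library 2 of set 2 and 43 without library 3 of set 2. The sets did not overlap in 0 of the 7 member genes and in 14.1% of all genes.

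For the kinesin genes, Kif1b had 92.6, 99.7 and 118.3 CPM in set 1, against 94.3, 113.1 and 99.2 in set 2, with a log2 fold change of 0.02 ± 0.13 (SE; limma adjusted p 0.99). Kif2a had 178.3, 122.7 and 111.7 CPM in set 1, against 175.0, 151.7 and 147.6 in set 2, with a log2 fold change of -0.23 ± 0.16 (SE; limma adjusted p 0.756). Library 1 of set 1 was the highest of all for Kif2a, and the other set 1 libraries lay below set 2. Klc1 had 120.8, 102.1 and 97.6 CPM in set 1, against 101.5, 139.0 and 120.7 in set 2, with a log2 fold change of -0.17 ± 0.14 (SE; limma adjusted p 0.831). Klc2 had 65.7, 44.9 and 53.9 CPM in set 1, against 58.9, 53.6 and 57.3 in set 2, with a log2 fold change of -0.06 ± 0.16 (SE; limma adjusted p 0.965). In all these kinesin genes the sets overlapped. The Kif2a log2 fold change was -0.43 without library 1 of set 1, -0.09 without library 3 of set 1 and -0.15 without library 1 of set 2. For Klc1 it was -0.26 without library 1 of set 1, -0.10 without library 3 of set 1, -0.28 without library 1 of set 2 and -0.06 without library 2 of set 2. For Kif1b and Klc2, leaving out 1 library turned the sign, and the log2 fold change ran from -0.08 (without library 3 of set 1) to 0.09 (without library 1 of set 1 or library 2 of set 2) for Kif1b and from -0.20 (without library 1 of set 1) to 0.07 (without library 2 of set 1) for Klc2.

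For the dynein and dynactin genes, Dync1i2 had 171.6, 149.8 and 135.0 CPM in set 1, against 170.9, 177.4 and 148.6 in set 2, with a log2 fold change of -0.12 ± 0.12 (SE; limma adjusted p 0.868). Dctn1 had 48.4, 63.4 and 65.9 CPM in set 1, against 48.3, 68.8 and 67.4 in set 2, with a log2 fold change of -0.05 ± 0.17 (SE; limma adjusted p 0.976). Dctn2 had 213.6, 158.8 and 157.2 CPM in set 1, against 197.1, 173.7 and 184.1 in set 2, with a log2 fold change of -0.08 ± 0.13 (SE; limma adjusted p 0.933). For Dctn1 the first-listed library was the lowest in each set, and for Dctn2 it was the highest in each set. When 1 library was left out, the log2 fold change of Dync1i2 ran from -0.21 (without library 1 of set 1) to -0.04 (without library 3 of set 1), that of Dctn1 from -0.21 (without library 1 of set 2) to 0.09 (without library 1 of set 1) and that of Dctn2 from -0.22 (without library 1 of set 1) to -0.00 (without library 3 of set 1). The signs for Dctn1 and Kif1b turned, to 0.10 and -0.03, when the reads of all skipped-exon events of a gene were summed.

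**Figure D4:**
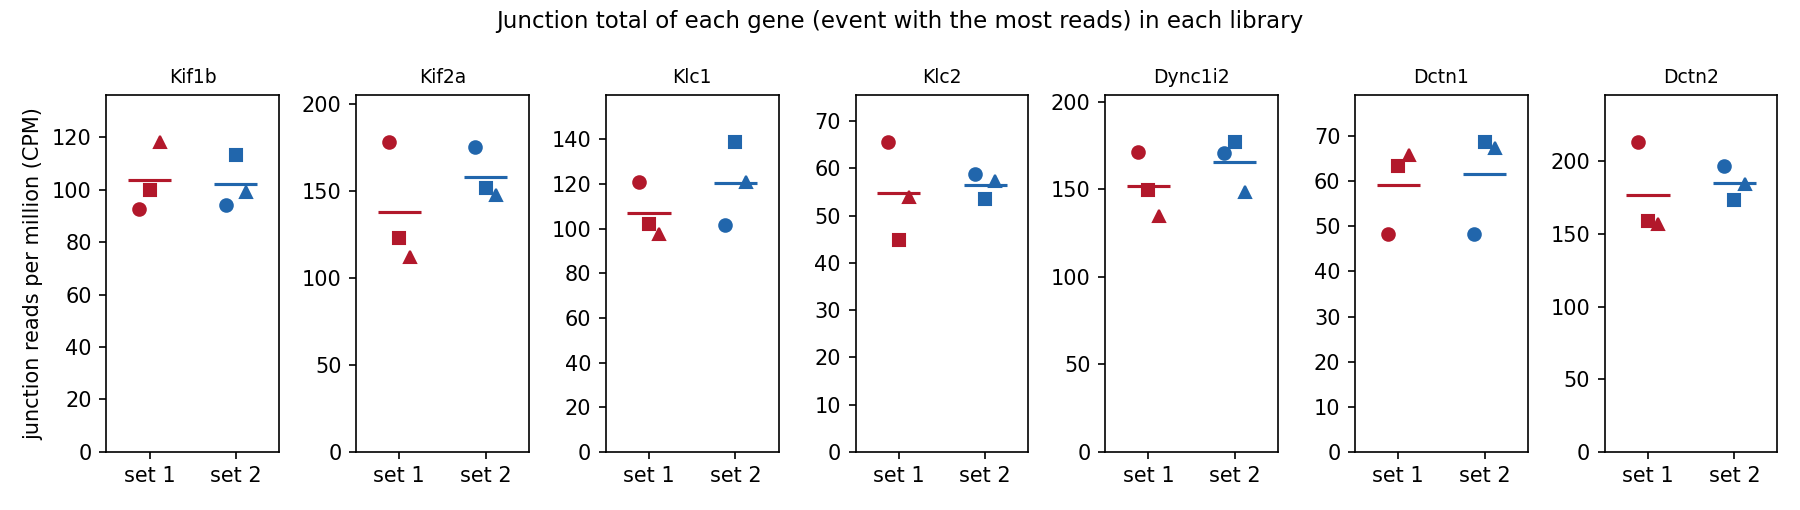
Junction total in CPM (vertical, from 0) of the 7 motor genes in each library, with set 1 on the left in red and set 2 on the right in blue, points for libraries and lines for means of 3. The sets overlap in every gene.

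Other genes of the transport machinery, a list of 80 kinesins, dynein and dynactin subunits, regulators and cargo adaptors, had 279 events in 62 genes, of which 249 were tested. The quasi-binomial test called 0 of the 249 and left 10 (4.02%) under 0.05 before adjustment, against 3.8% of all tested events. With limma on logit levels the counts were 0 and 12, against 3.32% of all tested events under 0.05 before adjustment. The authors' deposited table called 1 of the 279 events, against 0.645% of all its events. The called event was the 39-base exon of Spag9 at chr11:94113263-94113301, a gene that encodes JIP4, an adaptor that binds kinesin-1 and dynactin. The levels of this exon were 0.744, 0.802 and 0.753 in set 1, against 0.515, 0.63 and 0.65 in set 2. Every set 1 library lay above every set 2 library, and the sets did not overlap in 5.55% of all tested events. The means were 0.766 in set 1 and 0.598 in set 2, a difference of 0.168, with an adjusted p of 0.00437 in the authors' deposited table and of 0.352 in the quasi-binomial test. Of the 58 genes with a junction total, limma called 0, with 5 at an unadjusted p under 0.05, against 9.45% of all genes. The log2 fold change was above 0 in 23 and below 0 in 35 of them, from -0.60 to 0.72, with a median of -0.02, against -0.08 for the 7 member genes and 0.01 over all genes.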

How the data were processed

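RNA of 3 knockout and 3 wild-type N2a libraries was measured. The submitters' processing notes name Bowtie2 2.2.3, HISAT2 2.1.0, HTSeq 0.6.0 and mm10, with no role given. The authors deposited 1 splicing table of junction reads per library, inclusion levels and comparison scores, per the file headers (other fields, such as the deposited comma-joined triplets, were split into their 3 values). Levels recomputed from the deposited reads matched the deposited values to within 0.0005. Events with a mean of 20 or more reads per library were tested with a moderated quasi-binomial test (limma 3.58.1, R 4.3.3), in which the spread between libraries was estimated along the less frequent form's reads, using events where it had at least 5, with Benjamini-Hochberg adjustment over all events. For junction totals, limma with a mean-variance trend was fitted to log2(CPM + 1). edgeR had been planned for these totals and was not run, although the split values are whole-number counts. A fold change on that scale understates the change of low genes. The tests were tested on simulated data. Members, lists and tests were chosen with earlier results of these data known. Named events were, per gene, up to 3 well-read ones at mean levels of 0.05 to 0.95 and any with an unadjusted p under 0.05 or a call in the deposited table. Exon sequences come from GENCODE vM21 transcripts. Alternatives were another test, other minimum counts, another dispersion prior, other scalings and leaving out each library.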

Additional observations from a re-analysis of the deposited data

How the results depend on the processing

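No paired analysis was possible because the table's columns carry no replicate numbers. The 11 calls over all events became 0 with limma on logit levels (1309 at an unadjusted p under 0.05), 64 with the spread estimated along the total count, 24 with no minimum change and 2 to 19 when 1 library was left out; the cause was not tested. The member events called were 0, except 1 (Dync1i2, 60 bases) with the spread along the total count. The genes called on totals, 88 with all libraries, were 26 to 283 when 1 library was left out, and the member genes called stayed at 0. Of the inclusion differences of named events under the alternatives, 143 neither turned sign nor crossed the threshold (among them the Klc1 131-base exon, at a difference of 0 without library 1 of set 1), 14 turned sign and 1 passed. Another test, minimum count or dispersion prior leaves an inclusion difference unchanged, so only leaving out a library could turn its sign. Of the junction totals, 54 did neither and 9 turned sign. When 1 library was left out, the differences of events that turned ran from -0.0303 to 0.0327 (Kif2a, 57 bases), -0.0405 to 0.0005 (Kif2a, 114), -0.036 to 0.052 (Dctn2 exclusive exons), -0.0277 to 0.0528 (Klc2 exclusive exons), -0.002 to 0.035 (Klc1, 24), -0.00717 to 0.038 (Klc1, 51), -0.0833 to 0.0308 (Kif1b, 249) and -0.00467 to 0.0223 (Dync1i2, 3). The log2 totals that turned ran from -0.21 to 0.09 (Dctn1), -0.20 to 0.07 (Klc2) and -0.08 to 0.09 (Kif1b), and with summed skipped-exon events Dctn1 was at 0.10 and Kif1b at -0.03. The lowest adjusted p of a member total was 0.0801 (limma, Kif2a without library 1 of set 1). Scaling by the median ratio was added after seeing the data. The edgeR and DESeq2 alternatives were not run. The simulated data had a spread between libraries that was set beforehand, so how small a difference these libraries could show was not measured.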
